A study of Arabidopsis thaliana with 16 samples.

Results

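The genes described here loosen and remodel the plant primary cell wall: expansins, xyloglucan endotransglucosylase/hydrolases (XTHs) and a pair of enzymes that cut pectin. Expansins and XTHs were chosen by a gene symbol beginning EXPA, EXPB, EXLA, EXLB or XTH and a number. Every probe set of the *Arabidopsis* ATH1 array that the platform annotation matches to 1 such gene was taken. The pectate lyase gene AT1G67750 and the pectin lyase family gene AT1G60590 were added singly, not as families. The choice was made with earlier results of these data known. In all this gave 29 genes with 1 probe set each among 22746 tested probe sets: 10 alpha-expansins, 4 beta-expansins, 4 expansin-like genes, 9 XTHs and the 2 pectin-cleaving genes. The annotation does not list 8730 of the tested probe sets, and family members among those could not be picked. The families are thus covered in part, and statements on them hold for the genes named here. A pair of probe sets that each match 2 alpha-expansins was left out, and 2 relatives that the annotation lists under other symbols, EXGT-A3 (XTH27) and AT4G30380 (EXLB2), fall outside the rule.

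All 16 samples are labelled as leaves of 4-week-old wild-type *A. thaliana* of the ecotype Col-0, under titles that name seedlings, with tissue of at least 8 plants in each sample and 1 array per sample. Volatile-treated plants stood in a glass jar above Lima beans carrying leafminer larvae for 24 h (n = 2) or 48 h (n = 3), and their controls stood above healthy Lima beans for 24 h (n = 2) or 48 h (n = 3). In a separate experiment, leaves mined by second instar larvae of the pea leafminer (n = 3) were compared with leaves from undamaged, age-matched plants (n = 3), here called fed and healthy leaves. By the study's methods the receiver plants of the jar were frozen, with no mention of picking leaves, whereas the feeding experiment used selected leaves, so the material may differ between the experiments. Each sample pools its plants. The methods call the replicates independent or separate samples without giving separate plantings, so p-values here reflect the spread between these samples.

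Growing plant cells are held by cellulose microfibrils tied together with xyloglucan and embedded in pectin. Expansins loosen this network without cutting it, by disturbing the contacts between cellulose and the matrix, whereas XTHs cut xyloglucan chains and join them again, and pectate lyases cut the pectin backbone. The expansin-like proteins EXLA and EXLB resemble expansins in sequence, but their action on the wall is not established. The families are best known for cell expansion in growing leaves, stems and root hairs, and several XTHs also respond to touch, wounding and hormones.

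Signals are given as log2 values of the MAS5 signal intensities after quantile normalization of the 16 arrays, with signals under 1 set to 1, so that 0 is the floor. Before normalization the arrays did not share one scale, and their medians ranged between 19.2 and 30.3. The leaf genes RCA, the activase of Rubisco, and LHCB4.1, a chlorophyll-binding protein, lay between 11.33 and 11.9 on all arrays. These were the 2 leaf markers of 6 with a named probe set. FMA (FAMA), a guard cell regulator and the 1 guard cell marker of 5 with a named probe set, averaged 4.91 in fed leaves and 5.32 in healthy leaves. No root, flower, trichome, phloem or dividing cell marker had one. The actin 3′/5′ signal ratio, a measure of RNA integrity and labeling, ranged from 5.75 to 8.62 on the arrays of the feeding experiment and from 12.6 to 26.4 on those of the volatile experiment. The same ratio for GAPDH lay nearer to 1, from 0.948 to 1.19 on the feeding arrays and from 1.02 to 1.68 on the volatile arrays.

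In these leaves 14 of the 29 genes had a group mean at or above 4.61, the median of all tested probe sets. XTH32, of the XTH subgroup that includes xyloglucan hydrolases, was the strongest, with a mean log2 signal of 6.85 over the 16 arrays. It was followed by the alpha-expansins EXPA4 (6.68) and EXPA8 (6.52) and the expansin-like genes EXLA1 (5.98) and EXLB1 (5.86). The probe sets differ in their response to RNA, so this is an order of signals, not of transcript amounts. The other 15 genes stayed under the median in every group. Among them were EXPA7 (0.45) and EXPA18 (1.79), the alpha-expansins of root hairs, and XTH26, a root gene, which was at the floor on all 16 arrays. These low genes, and others outside the naming rule given with the processing, were named after their values were seen. In all, 13 genes touched the floor on at least 1 array.

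**Figure D1:**
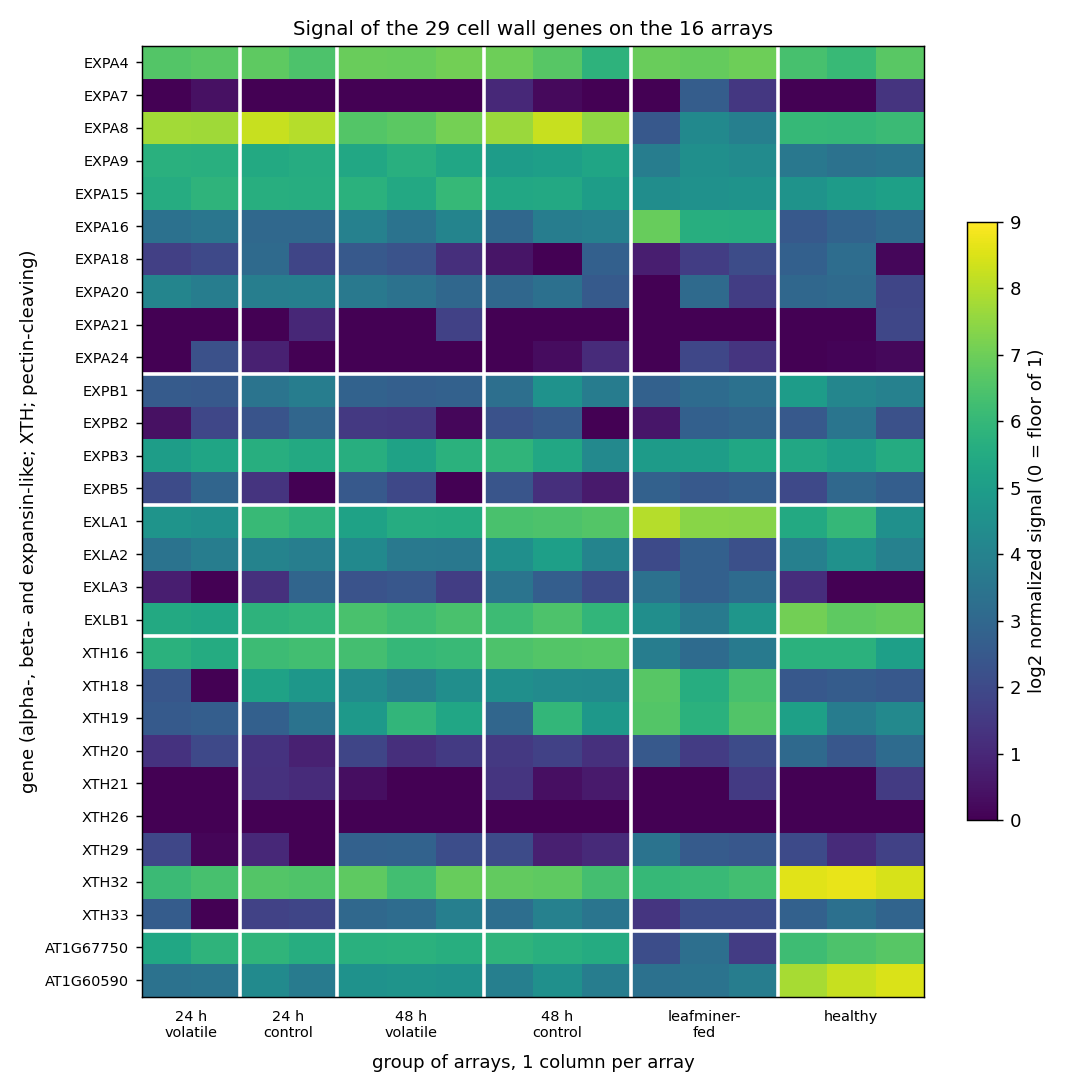
Log2 normalized signal of the 29 genes (rows, by family) on the 16 arrays (columns, by group); color runs from 0, the floor, to 9. EXPA8 was bright on all arrays of the volatile experiment, XTH26 was at 0 throughout, and AT1G60590 was bright on the 3 healthy arrays alone.

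Leafminer feeding gave the most calls. A gene was called where limma's adjusted p was 0.05 or less and its signal differed 2-fold or more. By this rule 5 of the 29 genes rose and 8 fell in fed leaves, or 44.8% of them. The 8 include the 2 pectin-cleaving genes, which were added singly with earlier results known and count toward this share. Over all tested probe sets 20.3% were called in this comparison, 9.8% up and 10.5% down. The fed arrays lay wholly above the healthy arrays in 8 of the 29 genes and wholly below them in 10, where 18.9% and 24.5% of all probe sets did so. The largest falls were those of the pectin-cleaving genes and the largest rises those of XTH18 and EXPA16. In the values as deposited the split over all probe sets was 2902 up and 1476 down, against 2230 up and 2381 down here. The median log2 change of the 29 genes was -0.36, against -0.06 over all probe sets. It was -0.14 as deposited, -0.14 without the third healthy array and -0.16 without the first fed array. Falling signal in bulk leaf tissue cannot distinguish fewer cells of a type from less RNA per cell.

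Both pectin-cleaving genes fell steeply in mined leaves. AT1G60590, of the pectin lyase family, had log2 signals of 3.36, 3.42 and 3.8 in fed leaves, against 7.81, 8.23 and 8.49 in healthy leaves. The fed and healthy arrays were far apart, and the change of -4.65 (SE 0.23, adjusted p = 5.2e-08) was a signal 25.1-fold lower, the seventh largest fall of all probe sets on the array. The pectate lyase gene AT1G67750 had 2.13, 3.3 and 1.59 in fed leaves, against 6.2, 6.48 and 6.65 in healthy leaves. Its change of -4.10 (SE 0.33, adjusted p = 1.7e-06) was 17.2-fold and the fifteenth largest fall, with more spread among the fed arrays than among the healthy ones.

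Among the 10 alpha-expansins of the set, which act mainly in cell enlargement, feeding raised 1 member and lowered 1. EXPA16 had log2 signals of 6.91, 5.65 and 5.61 in fed leaves, against 2.53, 2.87 and 3.1 in healthy leaves, a rise of 3.22 (SE 0.36, adjusted p = 2e-05). EXPA8 had 2.47, 4.26 and 3.88 in fed leaves, against 6.02, 5.99 and 6.14 in healthy leaves, a change of -2.52 (SE 0.36, adjusted p = 0.00016). Neither gene's groups overlapped. EXPA9 was higher on every fed array, with a log2 change of 0.70 (adjusted p = 0.0067) that did not reach 2-fold. EXPA4 had a mean of 6.94 in fed leaves and 6.38 in healthy leaves (log2 change 0.56, adjusted p = 0.099), and EXPA15 one of 4.52 in fed leaves and 4.89 in healthy leaves (adjusted p = 0.15). The other 5 alpha-expansins were weak, with group means of at most 2.66 in this experiment, and none was called.

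EXPB1, a beta-expansin, had log2 signals of 2.81, 3.16 and 3.34 in fed leaves, against 4.97, 4.13 and 3.96 in healthy leaves. The change of -1.25 (SE 0.34, adjusted p = 0.012) was the smallest of the 13 calls. It was lost in the values as deposited (-0.93, adjusted p = 0.088), in the fit on the 6 arrays of this comparison (adjusted p = 0.054) and without the first healthy array (adjusted p = 0.052). EXPB3, the strongest beta-expansin, averaged 5.11 in fed leaves and 5.35 in healthy leaves (adjusted p = 0.66). The weak EXPB2 and EXPB5 had log2 changes of -0.68 and 0.09.

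All 4 expansin-like genes were called, in opposite directions. EXLA1 had 7.99, 7.39 and 7.36 in fed leaves, against 5.45, 6.01 and 4.5 in healthy leaves, a rise of 2.26 (SE 0.30, adjusted p = 8.9e-05). EXLA3, the next protein-coding gene to EXLA1 on chromosome 3 in the RefSeq annotation of TAIR10.1, had 3.36, 2.75 and 3.13 in fed leaves, against 1.17, 0 and 0 in healthy leaves. Both neighbors were thus higher on every fed array, although EXLA3 lies low on the scale and its rise of 2.69 (SE 0.51, adjusted p = 0.0013) depends on the floor. EXLA2, on another chromosome, had 2.01, 2.77 and 2.19 in fed leaves, against 3.92, 4.57 and 3.97 in healthy leaves, a change of -1.83 (SE 0.31, adjusted p = 0.00057). EXLB1 had 4.45, 3.67 and 4.72 in fed leaves, against 7.07, 6.76 and 6.89 in healthy leaves, and its change of -2.63 (SE 0.22, adjusted p = 2.6e-06) was the largest fall among the expansin and expansin-like genes.

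The 9 XTHs of the set, which rearrange xyloglucan, also split. XTH18 had 6.67, 5.59 and 6.39 in fed leaves, against 2.48, 2.63 and 2.48 in healthy leaves, and its rise of 3.69 (SE 0.48, adjusted p = 6.9e-05) was 12.9-fold, the largest among the 29 genes. XTH19 is the next protein-coding gene to XTH18 on chromosome 4 and is known for its part in the reunion of cut stems. It had 6.58, 5.76 and 6.54 in fed leaves, against 5.12, 3.78 and 4.24 in healthy leaves. Its rise of 1.91 (SE 0.62, adjusted p = 0.030) was lost in 4 of the 6 fits that left out 1 fed or healthy array (adjusted p between 0.08 and 0.10). XTH32 had 6.04, 6.09 and 6.26 in fed leaves, against 8.58, 8.69 and 8.47 in healthy leaves, a change of -2.45 (SE 0.17, adjusted p = 4.3e-07) with little spread in either group. XTH16 had 3.82, 3.13 and 3.66 in fed leaves, against 5.74, 5.76 and 5.09 in healthy leaves, a change of -1.99 (SE 0.20, adjusted p = 9.2e-06). The other 5 XTHs were weak and not called: XTH29 had a log2 change of 1.21 (adjusted p = 0.095) and XTH33, which is anchored in the plasma membrane, one of -1.13 (adjusted p = 0.13), while XTH20, XTH21 and XTH26 lay between -0.82 and 0. EXGT-A3, the strongest of the relatives outside the rule, averaged 8.81 in fed leaves and 9.10 in healthy leaves (adjusted p = 0.32).

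**Figure D2:**
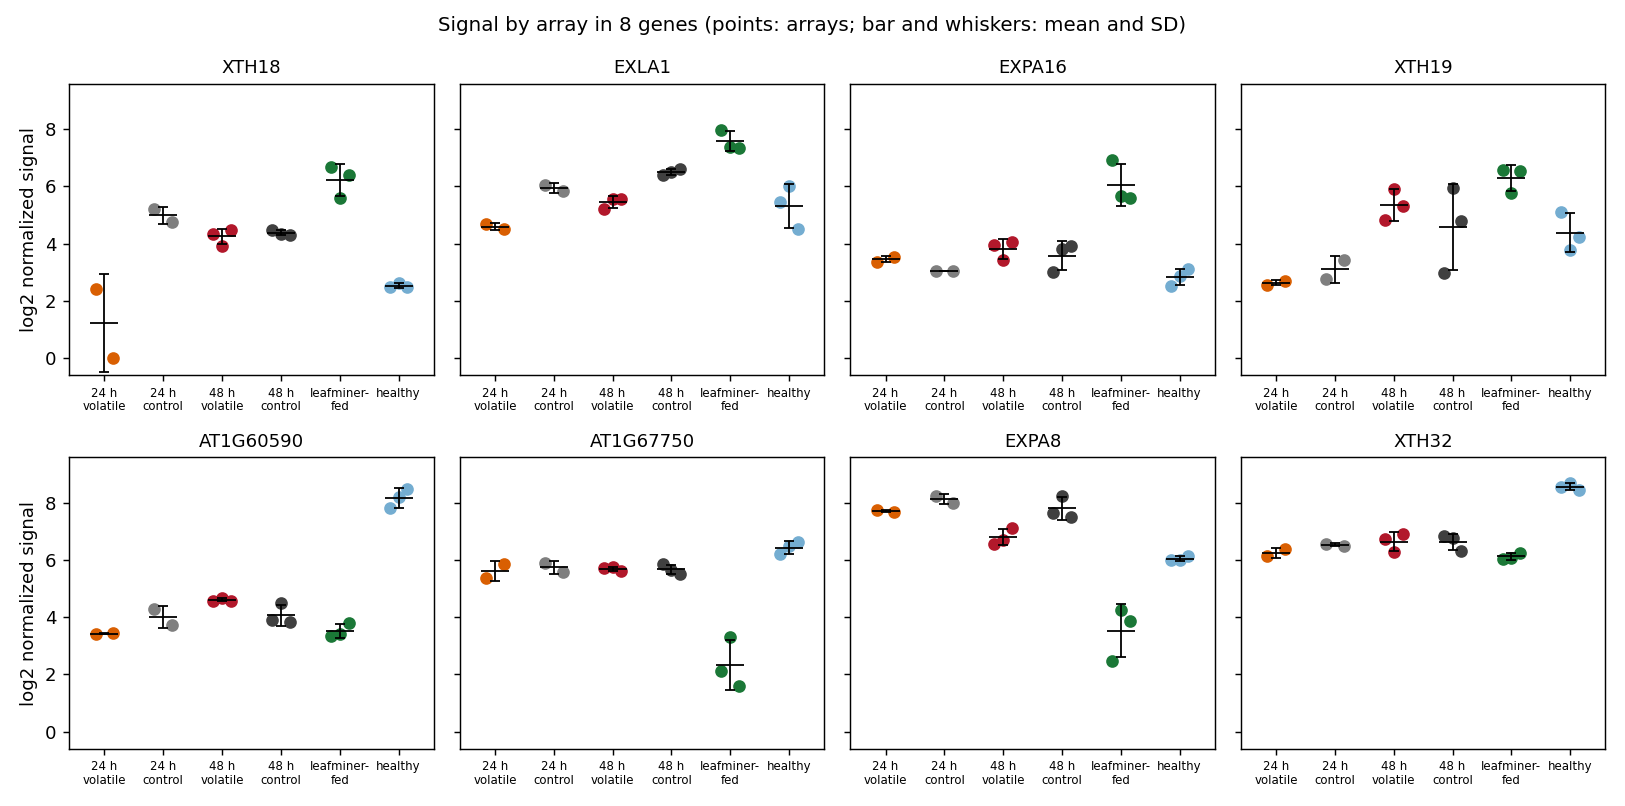
Log2 normalized signal of 8 of the genes on each array (points), with the mean and SD of each group; groups run along the x axis. In XTH18, EXLA1 and EXPA16 every fed array lies above every other array, AT1G67750 is low in fed leaves alone, and AT1G60590 stands high in healthy leaves alone.

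After 24 h of volatiles 1 of the 29 genes was called, with a fall, where 0.0747% of all probe sets were called, 0.044% down and 0.0308% up. That gene was XTH18, with log2 signals of 2.42 and 0 in volatile-treated plants, against 5.2 and 4.77 in controls. Its change of -3.78 (SE 0.58, adjusted p = 0.049) was the largest fall among all 22746 probe sets, in size 13.7-fold. The second volatile array was at the floor, so the size of the change depends on the floor. The call stands at the threshold: it was lost in the values as deposited (adjusted p = 0.15) and without either control array (adjusted p = 0.17 and 0.12). Over the alternatives its log2 change ranged between -4.97 and -1.33. XTH19, its neighbor, had 2.56 and 2.69 in volatile-treated plants, against 2.76 and 3.44 in controls, a log2 change of -0.48 (95% interval -2.13 to 1.17).

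Of the 29 genes 18 had a log2 change below 0 at 24 h, where 46.7% of all probe sets did, and only XTH18 among them passed the test. EXLA1 had log2 signals of 4.67 and 4.5 in volatile-treated plants, against 6.06 and 5.83 in controls, a change of -1.36 (SE 0.37, adjusted p = 0.43). All 4 expansin-like genes had both volatile arrays below both control arrays, with changes between -1.70 and -0.32. In the values as deposited the groups of EXLA2 and of EXLB1 overlapped, and those of EXLA1 and EXLA3 did not. At 48 h EXLA3 had a change of -0.61 (adjusted p = 0.62) and EXLB1 one of 0.17 (adjusted p = 0.79). XTH32 had changes of -0.29 at 24 h and 0.02 at 48 h, neither called. XTH16 had 5.74 and 5.54 in volatile-treated plants, against 6.18 and 6.26 in controls (log2 change -0.58, adjusted p = 0.81). Counting all 29 genes, the volatile arrays lay wholly below the control arrays in 14 and wholly above them in 3, whereas 15.9% of all probe sets lay wholly below and 17.1% wholly above. In the values as deposited, where the volatile arrays were brighter overall by a median of 0.31 on the log2 scale, the counts were 8 below and 7 above, against 5.33% and 47.1% of all probe sets. The median log2 change of the 29 genes was -0.39, against 0 over all probe sets, and became -0.25 without the first control array and -0.06 as deposited, where that of all probe sets was 0.31. Of the 29 genes 5 were lower and 1 higher at an unadjusted p under 0.05, where 3.06% and 2.72% of all probe sets were. The 1 higher gene was EXPB5, a weak beta-expansin with 2.04 and 2.95 in volatile-treated plants, against 1.35 and 0 in controls (log2 change 1.82, adjusted p = 0.83). The other weak genes outside the naming rule lay between -1.49 (EXPB2) and 0.71 (EXPA24).

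Of the 10 alpha-expansins 7 had a log2 change above 0 at 24 h, where 49.6% of all probe sets did. The median of the 10 was 0.09, against 0 over all probe sets. Among the 7, the weak EXPA7 and EXPA24 each rested on 1 volatile array, with the other at the floor. EXPA9 had 5.7 and 5.67 in volatile-treated plants, against 5.47 and 5.57 in controls, and EXPA16 had 3.37 and 3.53 in volatile-treated plants, against 3.03 and 3.04 in controls. Both genes lay slightly higher on both volatile arrays, and neither was called (adjusted p = 1 for both). EXPA4 and EXPA15 had log2 changes of 0.02 and 0.09. EXPA8 had 7.75 and 7.7 in volatile-treated plants, against 8.26 and 8.01 in controls, a change of -0.41 (SE 0.44, adjusted p = 1). EXPB1 had 2.57 and 2.52 in volatile-treated plants, against 3.45 and 3.81 in controls, a change of -1.08 (SE 0.41, adjusted p = 0.71), and EXPB3 averaged 5.15 in volatile-treated plants and 5.54 in controls (adjusted p = 1).

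After 48 h of volatiles none of the 29 genes was called by limma, whereas 1.39% of all probe sets were, 0.813% up and 0.576% down. At an unadjusted p under 0.05, 3 were higher and 4 lower, shares of 10.3% and 13.8% where 8.35% and 8.63% of all probe sets passed. The groups did not overlap in 3 genes that were higher and 5 that were lower, where 9.44% and 10% of all probe sets did so. EXLA1 came closest to a call, with 5.2, 5.57 and 5.55 in volatile-treated plants, against 6.41, 6.5 and 6.6 in controls. The groups did not overlap, and its change of -1.06 (SE 0.30, adjusted p = 0.086) was of the same sign as at 24 h. It passed when the fit kept the upper 60% of probe sets by mean signal (adjusted p = 0.033). EXPB1 had 2.84, 2.73 and 2.78 in volatile-treated plants, against 3.28, 4.6 and 3.79 in controls, a change of -1.11 (SE 0.34, adjusted p = 0.11) that passed without the first control array (-1.41, adjusted p = 0.030). EXPA8 had 6.58, 6.72 and 7.11 in volatile-treated plants, against 7.66, 8.26 and 7.51 in controls, a change of -1.01 (SE 0.36, adjusted p = 0.17). In EXLA1, EXPB1 and XTH16 every volatile array lay below every control array at both times, also in the values as deposited. In EXPA8 and XTH21 this held at both times after normalization. As deposited, the groups of EXPA8 overlapped at 24 h, where its change was -0.03, and those of the weak XTH21 overlapped at 48 h. These are all 5 genes that lay wholly lower at 48 h. Over all probe sets 15.9% lay wholly lower at 24 h and 10% at 48 h. The share lower at both times was not counted, so no background is given for these 5 genes. Besides EXLA1, EXPB1 and EXPA8, the gene lower at an unadjusted p under 0.05 was EXLA2 (-0.70, adjusted p = 0.28).

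XTH18 at 48 h had 4.35, 3.93 and 4.46 in volatile-treated plants, against 4.49, 4.35 and 4.31 in controls, a change of -0.13 with a 95% interval of -1.17 to 0.90. The difference between its responses at the 2 times was 3.64 (SE 0.75, adjusted p = 0.15), which did not pass in the fit on all probe sets. It passed with the upper 60% of probe sets alone (adjusted p = 0.049). Without the first volatile array of 24 h it was 4.84 (adjusted p = 0.0041), but that fit leaves 1 volatile array, at the floor, whose spread is assumed to be that of the other groups. None of the 29 genes was called for this difference, where 0.101% of all probe sets were, 0.0659% up and 0.0352% down. At an unadjusted p under 0.05, 2 were higher and 0 lower, where 4.41% and 3.56% of all probe sets passed. The second was AT1G60590, with a log2 change of -0.58 at 24 h and 0.53 at 48 h (difference 1.12, SE 0.36, adjusted p = 0.41).

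The pectin-cleaving genes, which fell most with feeding, were not called under volatiles. AT1G67750 had 5.71, 5.76 and 5.63 after 48 h of volatiles, against 5.85, 5.67 and 5.53 in controls, a change of 0.02 with a 95% interval of -0.71 to 0.74. AT1G60590 had 4.58, 4.67 and 4.58 after 48 h of volatiles, against 3.9, 4.5 and 3.82 in controls, a change of 0.53 (SE 0.23, adjusted p = 0.26) with no overlap. At 24 h it had 3.41 and 3.45 in volatile-treated plants, against 4.29 and 3.73 in controls, a change of -0.58 (SE 0.28, adjusted p = 0.90).

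Of the remaining genes named for 48 h, XTH19 averaged 5.35 ± 0.54 in volatile-treated plants and 4.57 ± 1.51 in controls (SD, n = 3 each), where the first control array (2.96) lay below the others, at 5.95 and 4.8. Without that array its change of 0.78 became -0.03. EXPB3 had a change of 0.36 (adjusted p = 0.66) that became -0.11 without the third control array. EXPA4 had a log2 change of 0.49 (adjusted p = 0.34), or 0.15 without the third control array, EXPA15 one of 0.46 (adjusted p = 0.20), EXPA9 one of 0.35 (adjusted p = 0.33) and XTH16 one of -0.43 (adjusted p = 0.30). The highest change among the 29 was that of XTH29, a weak gene with 2.81, 2.82 and 2.14 in volatile-treated plants, against 2.06, 0.79 and 1.07 in controls (1.28, adjusted p = 0.23). Weak genes not named for 48 h lay between -0.69 (XTH21) and 0.91 (EXPA18). Between the control groups themselves, 48 h against 24 h, 0 of the 29 genes and 0.0176% of all probe sets were called with limma. At an unadjusted p under 0.05, 3.74% of all probe sets were higher and 3.61% lower, and of the 29 genes 1 was higher and 0 lower. That gene, with the largest change among the 29, was XTH33 (1.74, adjusted p = 0.56), named after its value was seen.

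**Figure D3:**
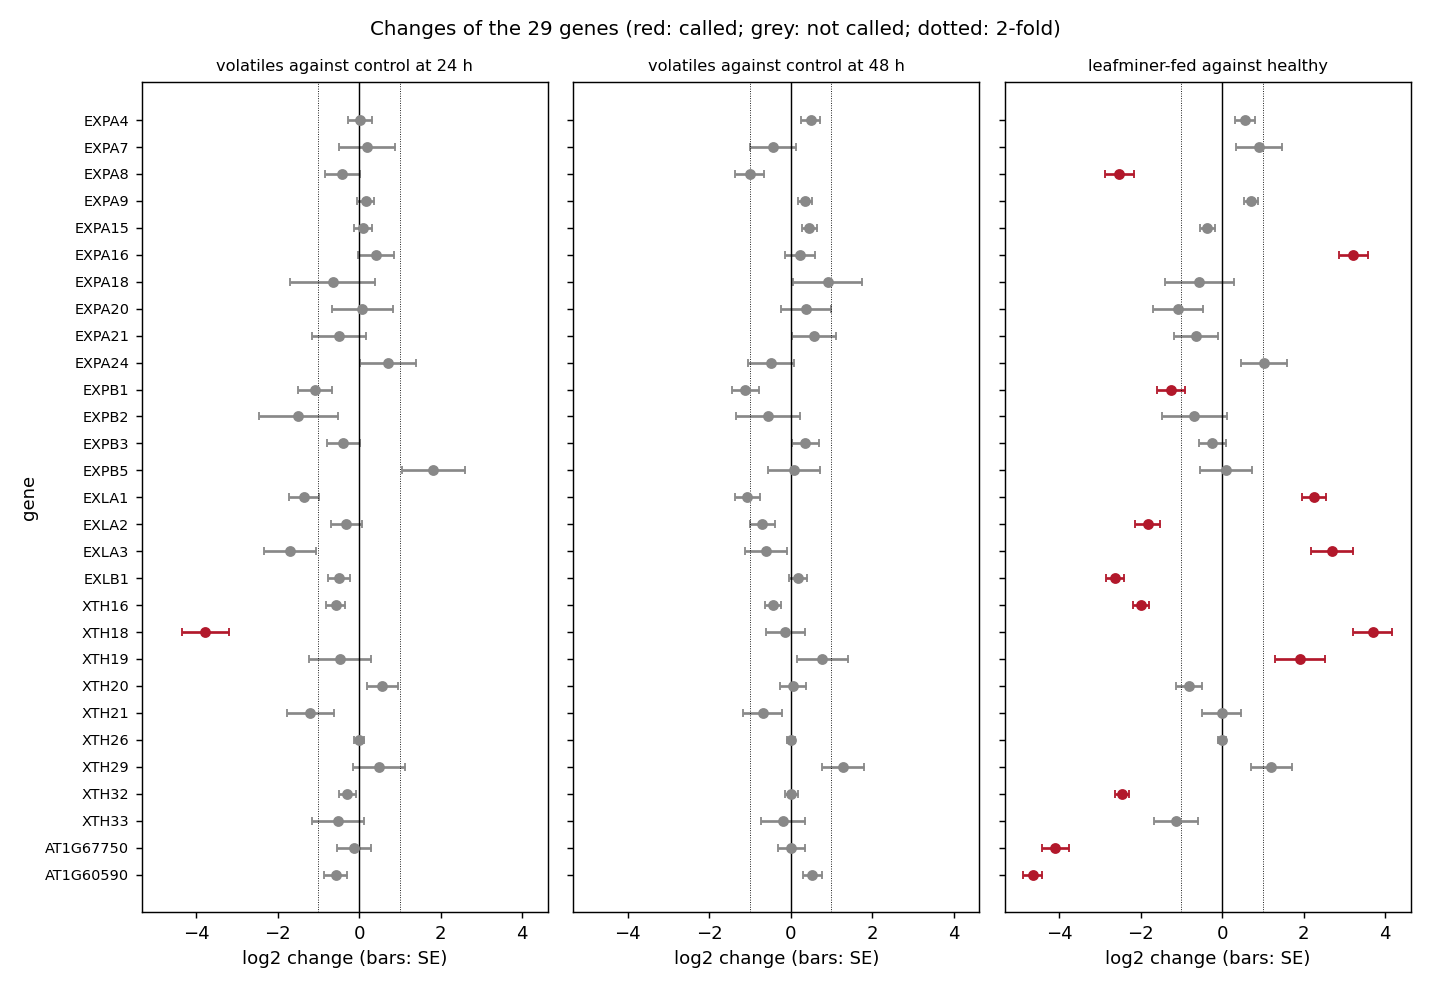
Log2 change of each of the 29 genes (rows) with its SE in the 3 comparisons, volatiles against control at 24 h and 48 h and fed against healthy; red points are called at an adjusted p of at most 0.05 and at least 2-fold. Feeding has 13 red points on both sides of 0, 24 h of volatiles has XTH18 alone, and 48 h has none.

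The feeding response and the 48 h volatile response share no arrays, and their difference was tested for each gene. It was called for 9 of the 29 genes, 4 upward and 5 downward, or 31% of them, where 16.7% of all probe sets were called, 8.3% upward and 8.44% downward. The 2 pectin-cleaving genes, added singly with earlier results known, are among the 5. XTH18 had a difference of 3.82 (SE 0.67, adjusted p = 0.0016), EXLA1 one of 3.32 (SE 0.43, adjusted p = 0.00018), EXLA3 one of 3.30 (SE 0.72, adjusted p = 0.0061) and EXPA16 one of 2.99 (SE 0.50, adjusted p = 0.0012). In EXLA1 every fed array lay above every healthy array, while every 48 h volatile array lay below every control array. Differences below 0 were -5.18 for AT1G60590, -4.12 for AT1G67750, -2.79 for EXLB1, -2.47 for XTH32 and -1.56 for XTH16, with adjusted p between 1.5e-06 and 0.0019. The reference groups also differed in level. In AT1G60590 the 48 h controls (4.07) lay near fed leaves (3.53) and far below healthy leaves (8.18), as in XTH32 (6.63, 6.13 and 8.58). In AT1G67750 (5.68, 2.34 and 6.44), EXLB1 (6.19, 4.28 and 6.91) and XTH16 (6.57, 3.54 and 5.53) they lay nearer to healthy leaves. Among the 4 genes with a difference above 0, the 48 h controls of EXLA3 (2.72) lay near fed leaves (3.08) and above healthy leaves (0.39). Those of XTH18 (4.38, 6.22 and 2.53) and EXLA1 (6.5, 7.58 and 5.32) lay between fed and healthy leaves. Those of EXPA16 (3.57, 6.05 and 2.84) lay nearer to healthy leaves. For EXPB1 the log2 change was -1.25 with feeding and -1.11 after 48 h of volatiles, and the difference of -0.15 (SE 0.48, adjusted p = 0.88) was not called. EXPA8 had a difference of -1.51 (SE 0.51, adjusted p = 0.053), EXPA15 one of -0.82 (adjusted p = 0.034) that did not reach 2-fold, XTH19 one of 1.13 (adjusted p = 0.42) and EXLA2 one of -1.13 (adjusted p = 0.091). By the study's methods the mined leaves were taken once larvae reached the second instar, days after egg laying, not after 48 h of exposure. The experiments thus differ in exposure time, and also in setup and in the actin ratio given above. The part of these, and of the reference levels, in the called differences was not tested.

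**Figure D4:**
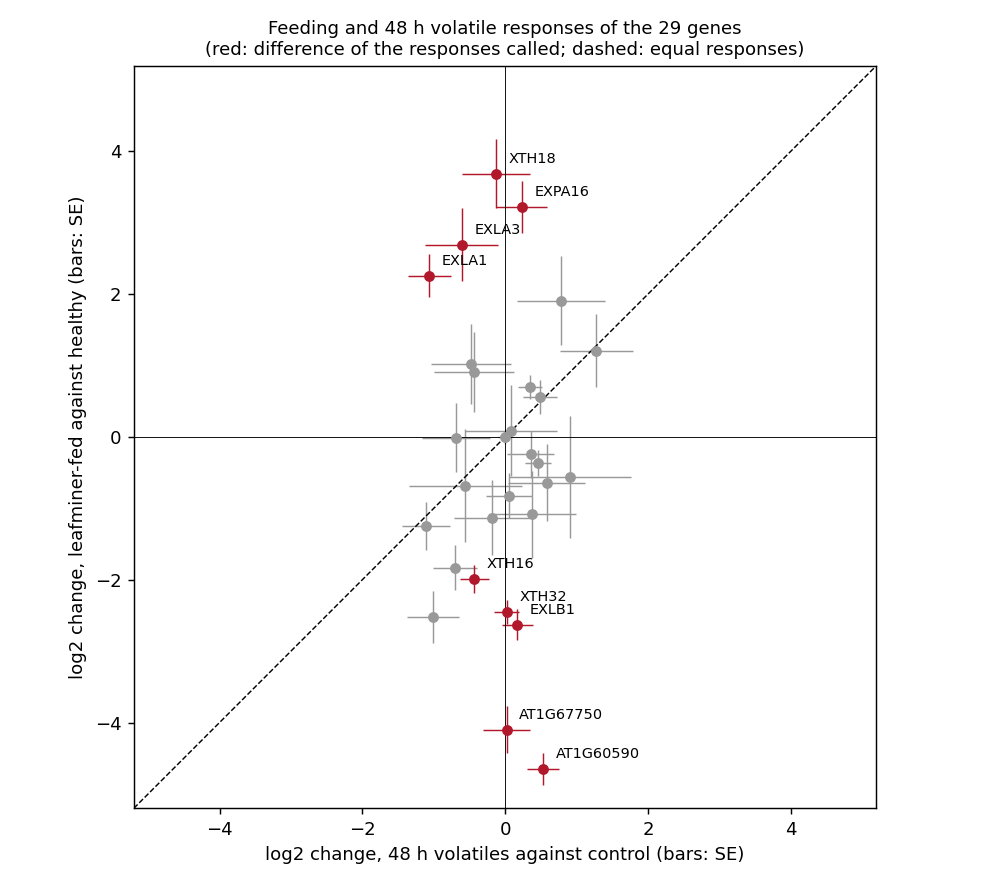
Log2 change with feeding (y axis) against log2 change after 48 h of volatiles (x axis) for the 29 genes, with SE bars; red and named where the difference of the responses was called. The 9 named genes lie along the y axis, between -4.65 and 3.69 with feeding and between -1.06 and 0.53 with volatiles.

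Other wall genes were few in the annotation. Of 5 lists written by symbol, for cellulose synthesis, xyloglucan synthesis and trimming, pectin synthesis, pectin modification and structural proteins, 8 genes had a named probe set. Feeding lowered 1 of the 8 by the thresholds, where 10.5% of all probe sets were called down. That gene was CSLC5, of the family that makes the xyloglucan backbone, with a mean of 5.06 in fed leaves and 7.22 in healthy leaves (log2 change -2.16, SE 0.20, adjusted p = 5.7e-06). COB (COBRA), which orients cellulose deposition, had a change of -0.89 (SE 0.11, adjusted p = 5.6e-05), short of 2-fold. The backbone genes CSLC04, CSLC6 and CSLC12 had log2 changes of 0.05, -0.22 and -0.19, and the beta-galactosidase gene BGAL16 one of -0.20. The pectin genes GAUT15 and PME61 had changes of 0.26 and -0.03 with feeding. None of these was called. The median of the 8 was -0.20 with feeding, against -0.06 over all probe sets. After 24 h or 48 h of volatiles 0 of them were called, where 0.0747% and 1.39% of all probe sets were. At 48 h the pectin methylesterase gene PME61 had a log2 change of 0.51 (adjusted p = 0.36) and GAUT15, of pectin synthesis, one of -0.50 (adjusted p = 0.10).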

How the data were processed

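Levels were measured on ATH1 arrays, 1 per sample. The deposited intensity values are MAS5 signals the authors computed; their scaling target, and whether the normalization in GeneSpring entered these values, is not given in the sources used here. The arrays were quantile normalized, signals under 1 were set to 1, log2 values were taken, and 64 control probe sets of 22810 were left out. A linear model with 6 group means was fitted to all 16 arrays with limma 3.58.1 (R 4.3.3), with a variance trend and Benjamini-Hochberg adjustment over 22746 probe sets in each of 6 comparisons. A call needs an adjusted p of at most 0.05 and a 2-fold change, the thresholds of the methods, whose SAM test was replaced by limma because it permutes arrays, and 3 arrays against 3 allow 20 splits. Adjusted p values and SEs are limma's. The fit was also run on simulated data, with changes placed only in probe sets at or above the median signal. That run does not cover the weak genes, and no result here rests on it. The number of arrays limits the precision, and no 2 arrays held identical values. Plots used matplotlib 3.10.9 in Python 3.11.15.

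Genes were named from the platform annotation, which pairs 13513 tested probe sets with 1 gene, 503 with several and lists 8730 not at all; all 29 genes have a locus in the RefSeq table of TAIR10.1. The genes, lists and alternatives were chosen with earlier results of these data known. Genes named are those called in any comparison, the 5 largest rises and 5 largest falls per treatment comparison among genes whose higher mean reaches the median of all probe sets, the 5 strongest, and the pectin-cleaving pair. PRP39, a splicing factor whose symbol fits the wall list by chance, was left out. Alternatives were the values as deposited, median scaling, 16 added before log2 in place of the floor, keeping the upper 60% of probe sets by mean signal, fits restricted to the groups compared, a block on the replicate number, no variance trend, other fold thresholds and leaving out each array; counts of groups that do not overlap under other scalings were added after seeing the data.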

Additional observations from a re-analysis of the deposited data

Results flagged for a closer look

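Responses to feeding and to 48 h of volatiles differed by limma's test of the difference itself (feeding response minus volatile response, log2) in 9 genes. The difference was 2.99 for EXPA16, 3.32 for EXLA1, 3.3 for EXLA3 and 3.82 for XTH18. It was -2.79 for EXLB1, -1.56 for XTH16, -2.47 for XTH32, -4.12 for AT1G67750 and -5.18 for AT1G60590. The 9 genes were called in the feeding comparison as well, and none of them after 48 h of volatiles. In some of them, such as AT1G60590, the 48 h controls and healthy leaves also differed in level, as given above. Groups of 2 or 3 arrays are too small for a check of single outlying arrays.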

How the results depend on the processing

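Under the alternatives the count of the 29 genes called with feeding ranged between 10 and 15, and that for the feeding response minus the 48 h volatile response between 7 and 11. At 24 h the 1 call became 0 in the values as deposited, with log2 of the value plus 16, in the fit on the arrays of the comparison alone and with the replicate block, and was 0 to 1 when single arrays were left out. At 48 h the count of 0 became 1 for EXLA1 with the upper 60% of probe sets and was 0 to 1 when single arrays were left out, as was the count for the 48 h minus the 24 h response, which also became 1, for XTH18, with the upper 60%. Of 542 alternative values for 39 changes of single genes, 518 kept their direction and side of the threshold. Signs turned in 5, all of changes not called: EXPA4 at 24 h to -0.12 without the second control array and -0.04 without the second volatile array (range over single arrays left out -0.12 to 0.16), EXPA15 at 24 h to -0.06 without the second volatile array (-0.06 to 0.23), XTH19 at 48 h to -0.03 without the first control array (-0.03 to 1.46) and EXPB3 at 48 h to -0.11 without the third (-0.11 to 0.72). With log2 of the value plus 16, EXLA2 (-0.69), EXLA3 (0.53) and EXPB1 (-0.58) no longer reached 2-fold with feeding. Over all probe sets the main counts of 17 at 24 h and 316 at 48 h became 4 and 174 in the values as deposited, 1 and 98 with the replicate block, 0 and 29 in the fits on the arrays of the comparison alone, and 29 to 59 and 149 to 626 when single arrays were left out, so the background shares at these times move as well. The split of calls over all probe sets also depended on scaling: as deposited it was 1 up and 3 down at 24 h (7 and 10 after quantile normalization), 127 up and 47 down at 48 h (185 and 131), 5 up and 0 down for the 48 h minus the 24 h response (15 and 8) and 2002 up and 1192 down for the feeding minus the 48 h volatile response (1888 and 1919). With median scaling it was 2 up and 12 down at 24 h. The median log2 change of the 29 genes ranged between -0.41 and -0.06 at 24 h and between -0.51 and -0.13 with feeding. Over all probe sets, deviations of arrays with the same replicate number correlated between -0.03 and 0.05, so no general pairing by these numbers was seen. This cannot exclude pairing in single genes. At 48 h and with feeding, the replicate block lowered the SE of XTH19 from 0.62 to 0.36, while that of EXPA4 went from 0.24 to 0.25. The replicate block left 0 of the 29 genes called at 48 h. Signals near the floor limit what can be said of the 15 weak genes.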

Other observations

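The plants of the jar experiment and the healthy plants of the feeding experiment differed widely in some of these genes. The log2 signal of AT1G60590 averaged 4.01 in the 24 h controls and 4.07 in the 48 h controls, against 8.18 in healthy plants, and fed leaves (3.53) lay close to the jar controls. XTH32 averaged 6.54 and 6.63 in the 24 h and 48 h controls, against 8.58 in healthy plants, with 6.13 in fed leaves. XTH18 and EXPA8 ran the other way, with 4.98 and 4.38 for XTH18 and 8.13 and 7.81 for EXPA8 in the 24 h and 48 h controls, against 2.53 and 6.05 in healthy plants. In 4 of the 29 genes all 5 jar controls lay above all 3 healthy arrays with both control means at least 2-fold higher, and in 3 they lay below by as much, where 7.11% and 6.85% of all probe sets did. The jar, and by the methods the material frozen (receiver plants against selected leaves), differ between the experiments and cannot be told apart. Dates of growth and hybridization are not given in the sources used here, and these levels were not tested.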
